A study of Homo sapiens with 32 samples.

Results

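Transcripts of 10 noncoding genes that carry small nucleolar RNAs in their introns (GAS5, SNHG1, SNHG3, SNHG5, SNHG6, SNHG8, SNHG12, SNHG16, ZFAS1 and EPB41L4A-AS1) were followed in a comparison of RNA decay between MDA-LM2 and MDA-MB-231 cells. They were found by matching the RefSeq identifiers of the deposited tables to current gene symbols, which gave 18 host transcripts of the 15772 transcripts in either table and 16 of the 12966 in both. MDA-LM2 is a derivative, selected for metastasis to the lung of mice, of MDA-MB-231, a long-established line of human breast cancer cells. Both lines received a 2 h pulse of 4-thiouridine, a uridine analogue that newly made RNA takes up, followed by medium with an excess of uridine, with no other agent named in the labels. Labelled RNA was collected at 0, 2, 4 and 7 h, in 4 replicate series for each line (32 libraries), and the tables hold 1 decay rate per transcript and series.

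A positive rate means that the labelled transcript was lost with time, and a larger rate means faster loss. The log base, how time points were scaled and how zeros were handled are not stated in the labels or file headers, so rates are in the deposited unit and were not turned into half-lives. The depth behind each rate is unknown. Nothing in the labels says that the 4 series of a line were separate cultures, and p-values then measure just the spread between series, which may be technical. All 6 listed markers of the mesenchymal state of these lines (VIM, CD44, AXL, CAV1, ANXA1 and PLAUR) had rates in both tables, as did 1 of 5 luminal markers, KRT19, but rates are not abundances, so the labelled cell type could not be checked further.

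Small nucleolar RNAs guide the chemical modification and processing of ribosomal RNA, and in human cells most of them are cut out of the introns of a host transcript. The box C/D class directs ribose methylation and the box H/ACA class directs pseudouridylation. Many host transcripts share a feature with messages of ribosomal proteins, a pyrimidine tract at the start of the RNA (the terminal oligopyrimidine, or TOP, motif) that ties their translation to growth signals. The spliced exons of several noncoding hosts hold only short reading frames, and ribosomes on them make the RNA a substrate of nonsense-mediated decay, as is well known for GAS5.

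By position in RefSeq, 37 genes of small nucleolar RNAs lie inside these 10 hosts, 11 of them in GAS5, 9 in SNHG1, 4 in SNHG12, 3 each in SNHG16 and ZFAS1, 2 each in SNHG3 and SNHG5, and 1 each in SNHG6, SNHG8 and EPB41L4A-AS1. These counts rest on position alone, without a check of strand or intron. The start of each gene in the RefSeq promoter table (GRCh38.p14, 25 bases before the first base of the gene and 50 from it) was searched for an unbroken run of C and T that includes the first base. Such a run of 5 or more was present at 5 of the 9 hosts in that table, against 9.6% of its 35116 promoters, and at 23 of 60 protein-coding hosts. The 5 are shown because the run is what they share beyond the snoRNAs, with GAS5 as a host whose single start in that table has none. RefSeq lists 50 transcripts of GAS5, and whether the measured one begins at this start was not checked. The GAS5 sequence therefore does not show that GAS5 RNA lacks the motif. Capitals mark the run, and all are written 5′ to 3′ on the strand of the gene. The run can begin before the first base of the gene. Counted from that base on, it held 11 bases at SNHG12, 5 at ZFAS1, 5 at SNHG5, 3 at SNHG1 and 1 at SNHG8. The remaining capitals lie before the annotated start and so outside the annotated RNA.
SNHG12, chr1:28581824-28581898, minus strand: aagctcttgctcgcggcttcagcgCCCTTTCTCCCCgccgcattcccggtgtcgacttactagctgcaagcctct
ZFAS1, chr20:49278617-49278691, plus strand: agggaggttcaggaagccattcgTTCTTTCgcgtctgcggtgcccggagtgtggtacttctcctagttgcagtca
SNHG5, chr6:85678684-85678758, minus strand: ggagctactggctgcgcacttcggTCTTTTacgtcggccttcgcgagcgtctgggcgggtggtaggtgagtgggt
SNHG8, chr4:118278737-118278811, plus strand: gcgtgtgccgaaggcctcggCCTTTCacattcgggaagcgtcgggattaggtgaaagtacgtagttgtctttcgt
SNHG1, chr11:62855836-62855910, minus strand: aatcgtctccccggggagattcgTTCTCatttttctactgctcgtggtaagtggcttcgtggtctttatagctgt
GAS5, chr1:173868996-173869070, minus strand: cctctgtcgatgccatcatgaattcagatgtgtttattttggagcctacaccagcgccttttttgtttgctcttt

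The run reached 12 bases at SNHG12 and 7 at ZFAS1, was 4 at EPB41L4A-AS1, and had no base at SNHG3 and SNHG16, as at GAS5. The minimum of 5 was set here and is no standard definition, the search rests on 1 annotated start per gene, and the presence or absence of the letters says nothing of use of the motif in these cells.

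The question of the study was which transcripts differ in stability between the 2 lines. Of the 16 host transcripts measured in both, 3 decayed more slowly in MDA-LM2 and 0 faster at an adjusted p under 0.05 (limma, Benjamini-Hochberg over 12966 transcripts): GAS5 NR_002578, ZFAS1 NR_003605 and SNHG16 NR_038108. Among all transcripts, 6.04% were called slower in MDA-LM2 (783) and 1.9% faster (246), or 622 (4.8%) and 442 (3.41%) after each series was centred on its median. At an unadjusted p under 0.05, 5 host transcripts were slower in MDA-LM2 and 0 faster, against 2338 and 932 of all transcripts. The p that the authors' deposited table holds, once adjusted, called 1 host transcript slower and 0 faster (all transcripts 4.49% and 1.07%). The mean rate was lower in MDA-LM2 for 14 of the 16, against 66.2% of all transcripts. The difference of a host transcript had a median of -0.0948, against -0.0538 over all transcripts. Among transcripts with all rates within 1 of 0 this median was -0.0234 for the hosts, against -0.0166 for all. That cut is made on the rates being compared. It falls unevenly, as 18.3% of all MDA-MB-231 rates and 4.24% of all MDA-LM2 rates lay beyond 1. Without the variance trend limma called the same 3 (all transcripts 4.77% slower and 1.39% faster). With any single series left out it called 0 to 4 slower (all transcripts 457 to 1082 slower). It called 2 host transcripts with centred series, 2 with the robust option (all transcripts 5.04% slower and 1.74% faster), 2 of the 9 with all rates within 1 of 0 (6.64% and 3.4% of such transcripts) and 1 of 10 genes, GAS5 (6.76% and 1.98% of genes). None of the 3 calls held when limma treated series with the same second label number as correlated. That fit called 2.97% of all transcripts slower (385) and 0.285% faster (37). At an unadjusted p under 0.05 it had 3 host transcripts slower and 0 faster, against 1409 and 546 of all transcripts.

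**Figure D1:**
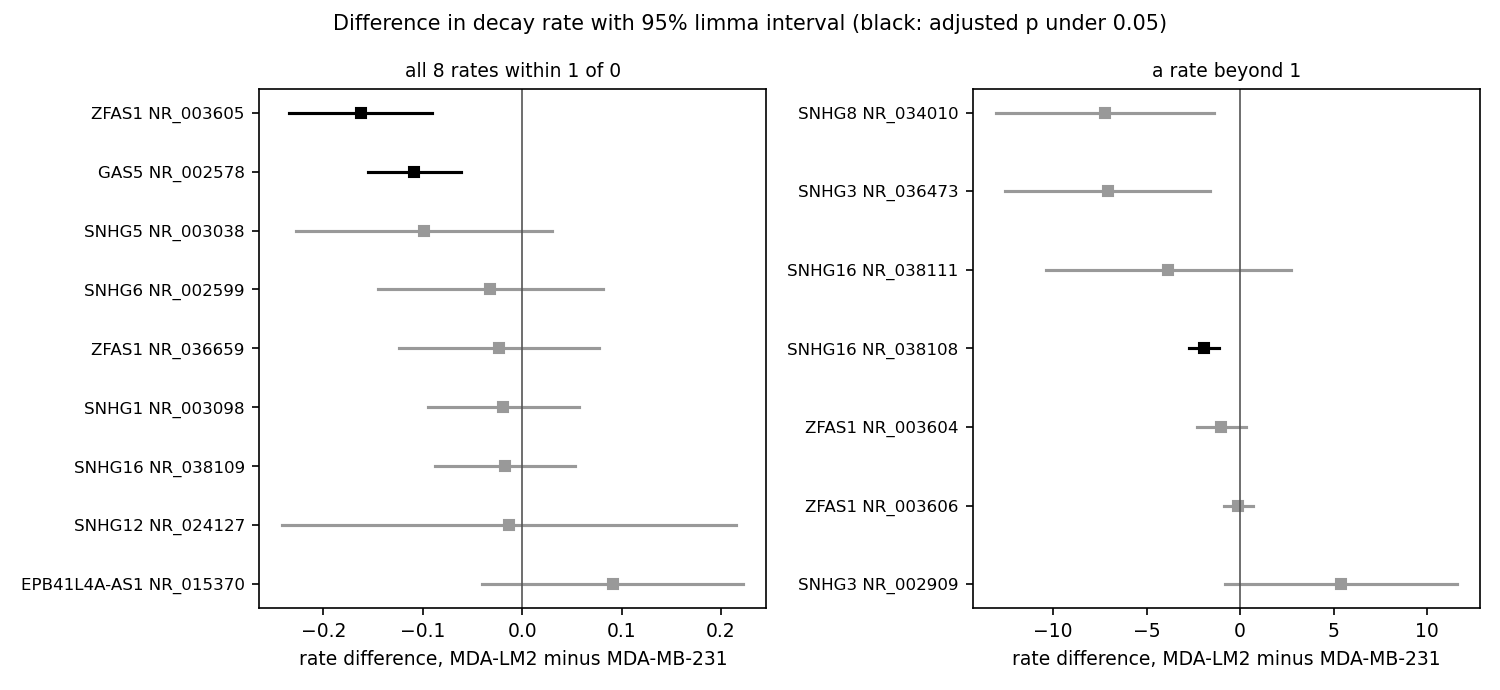
Difference in decay rate (MDA-LM2 minus MDA-MB-231, deposited unit) of the 16 host transcripts in both tables, with the 95% interval of the limma fit. The left panel holds the 9 with all rates within 1 of 0 and the right panel the 7 with a rate beyond 1, on another scale. Black marks the 3 transcripts past adjusted p 0.05, all left of 0.

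GAS5, the growth arrest-specific host with 11 small nucleolar RNA genes inside it by position, is a noncoding RNA known to build up when translation or growth is held back. Transcript NR_002578 had rates of 0.00705, 0.0279, 0.0267 and 0.0205 in MDA-LM2, against 0.0838, 0.160, 0.121 and 0.151 in MDA-MB-231 (series 1 to 4 of each line). All 4 MDA-LM2 rates lay below all 4 MDA-MB-231 rates, as in 16.6% of all transcripts, while the reverse order held in 5.83%. The mean was 0.0205 ± 0.00955 in MDA-LM2, against 0.129 ± 0.0345 in MDA-MB-231 (SD, n = 4 each), a difference of -0.108 (SE 0.0199, limma adjusted p = 0.0207). A two-sided exact permutation test gave p = 0.0286, the smallest that 4 against 4 series allow. Any transcript whose lines do not overlap has this value, so it adds nothing to the lack of overlap. Percentiles here rank a transcript within each series among all transcripts with rates in that line (14545 in MDA-LM2, 14193 in MDA-MB-231). The 2 lines thus have different backgrounds. The mean percentile of GAS5 was 14.4 in MDA-LM2, against 36.1 in MDA-MB-231, where a low percentile means slow loss. The limma adjusted p was 0.0749 with correlated series and 0.0646 with centred series. It was above 0.05 without any single MDA-LM2 series (0.0606 to 0.0759) and below it without any single MDA-MB-231 series (0.00778 to 0.0455).

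ZFAS1 is an antisense transcript at the start of the ZNFX1 gene that hosts 3 box C/D small nucleolar RNAs and has been found with ribosomal subunits. NR_003605 had rates of 0.0313, 0.119, 0.0503 and 0.115 in MDA-LM2, against 0.203, 0.230, 0.236 and 0.295 in MDA-MB-231, with no overlap. The mean was 0.0788 ± 0.0446 in MDA-LM2, against 0.241 ± 0.0389 in MDA-MB-231, a difference of -0.162 (SE 0.0304, limma adjusted p = 0.0221, exact permutation p = 0.0286). Its mean percentile was 27.7 in MDA-LM2, against 59.7 in MDA-MB-231. It was also the single host transcript called from the authors' deposited table, where its score of 0.998 gave an adjusted p of 0.0355. The limma adjusted p was 0.0816 with correlated series, 0.0698 without MDA-LM2 series 1, 0.0784 without MDA-LM2 series 3 and 0.0504 without MDA-MB-231 series 3.

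The other 3 ZFAS1 transcripts were not called. NR_036659 had means near 0, -0.00505 ± 0.0200 in MDA-LM2, against 0.0183 ± 0.0867 in MDA-MB-231 (adjusted p = 0.719 in limma). NR_003604 had rates of 0.129, 0.0580, 0.0510 and -0.0148 in MDA-LM2, against 0.160, 2.61, 0.101 and 1.37 in MDA-MB-231, so the high values were in MDA-MB-231 series 2 and 4 alone (limma adjusted p = 0.290). NR_003606 had mean rates of -0.214 ± 0.675 in MDA-LM2, against -0.123 ± 0.153 in MDA-MB-231 (adjusted p = 0.862 in limma). The 4 ZFAS1 models, matched to GENCODE transcripts of 1008 (NR_003604), 596 (NR_003605), 860 (NR_003606) and 504 bases (NR_036659), share most of their sequence. Of their stretches of 25 bases, 100%, 96.5%, 97.1% and 86.5%, in that order, also occur in another of the 4. Rates of single ZFAS1 isoforms therefore rest on how shared reads were divided and are uncertain, and whether reads of ZNFX1 were kept apart by strand is not stated.

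SNHG16, which hosts 3 box C/D small nucleolar RNAs and was described as an RNA raised in aggressive neuroblastoma, had the largest called difference among the hosts. NR_038108 had rates of 0.279, 0.158, -0.00993 and 0.0306 in MDA-LM2, against 2.23, 2.53, 2.45 and 1.05 in MDA-MB-231, with no overlap. The mean was 0.114 ± 0.131 in MDA-LM2, against 2.07 ± 0.689 in MDA-MB-231, a difference of -1.95 (SE 0.338, limma adjusted p = 0.0166, exact permutation p = 0.0286). Every MDA-MB-231 rate was beyond 1, in a range that held 18.3% of all MDA-MB-231 rates and 4.24% of all MDA-LM2 rates. The limma adjusted p was 0.124 with correlated series, 0.0671 with the robust option, and 0.0528 to 0.0644 without any single MDA-LM2 series. Leaving out a MDA-MB-231 series kept the call (0.000774 to 0.0406).

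The sister isoforms of SNHG16 gave other values. NR_038109 had means of 0.121 ± 0.0215 in MDA-LM2, against 0.138 ± 0.0542 in MDA-MB-231, and the 95% interval of its difference ran from -0.0877 to 0.0528 (limma adjusted p = 0.700). NR_038111 had 0.210, 0.541, 0.344 and 3.16 in MDA-LM2, against 9.71, 0.144, 9.79 and -0.0369 in MDA-MB-231, where series 1 and 3 stood far above series 2 and 4 (limma adjusted p = 0.394). NR_038110 was in the MDA-LM2 table only, at 0.378, 0.671, 0.206 and 9.26. No SNHG16 isoform was matched to a single GENCODE model, so their sequence overlap was not measured and isoform rates are uncertain here too.

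**Figure D2:**
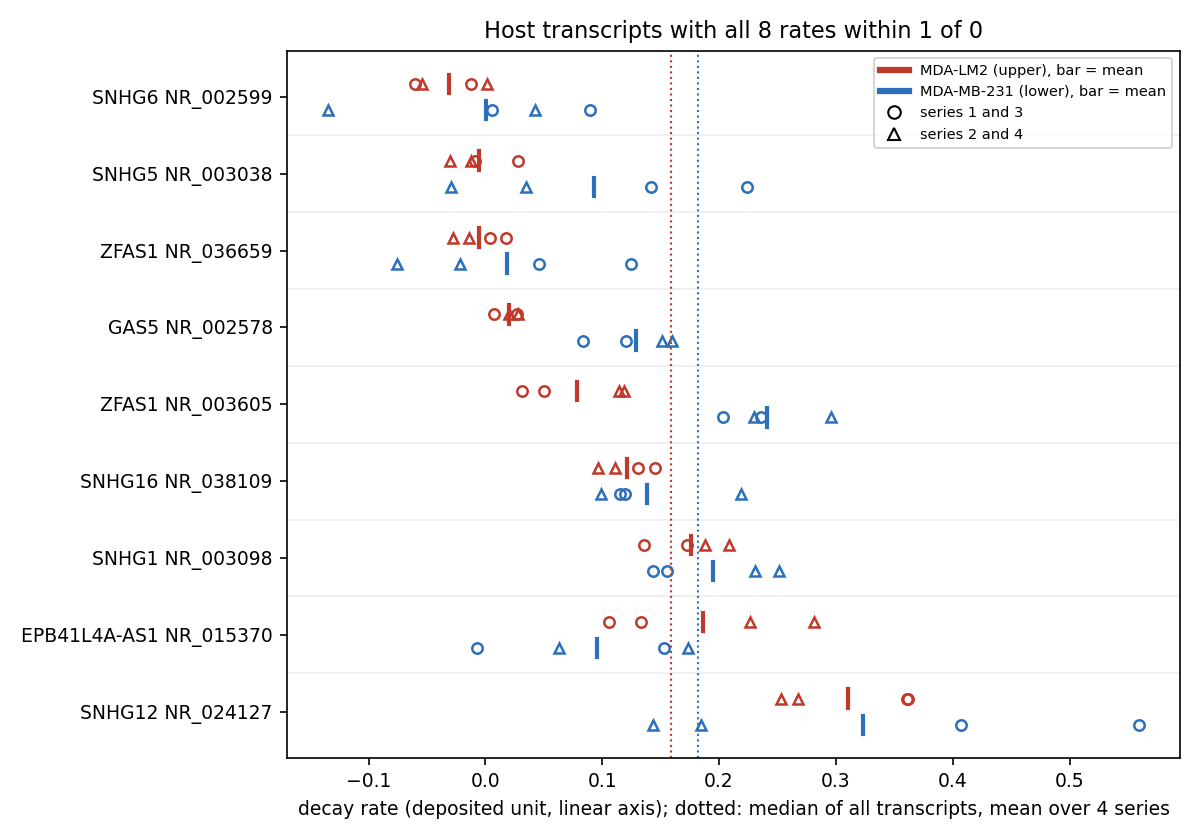
Decay rate (deposited unit) in every series of the 9 host transcripts whose 8 rates were within 1 of 0, ordered by the MDA-LM2 mean, with MDA-LM2 above MDA-MB-231 in each row. Bars are means, symbols separate series 1 and 3 from series 2 and 4, and dotted lines are the medians of all transcripts (0.159 in MDA-LM2, against 0.182 in MDA-MB-231). GAS5 and ZFAS1 NR_003605 are the rows in which the lines do not overlap.

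Among the hosts with all rates within 1 of 0, SNHG6, SNHG5, ZFAS1 NR_036659 and GAS5 formed a slow group in MDA-LM2, with every rate at or below 0.0280. SNHG6 (NR_002599), host of a single box C/D small nucleolar RNA, had rates of -0.0120, 0.00157, -0.0605 and -0.0543 in MDA-LM2, against 0.0897, -0.135, 0.00569 and 0.0421 in MDA-MB-231. The lines overlapped, and the difference was -0.0320 (95% interval -0.145 to 0.0813, limma adjusted p = 0.663). Its mean percentile was 8.36 in MDA-LM2, against 15.5 in MDA-MB-231, the lowest in MDA-LM2 of the 9. SNHG5 (NR_003038), host of the U50 family, had 0.0280, -0.0120, -0.00883 and -0.0300 in MDA-LM2, against 0.142, -0.0297, 0.224 and 0.0347 in MDA-MB-231. MDA-MB-231 series 1, 3 and 4 were above every MDA-LM2 rate and series 2 was not (difference -0.0985, SE 0.0544, limma adjusted p = 0.291).

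SNHG1, EPB41L4A-AS1 and SNHG12 had the highest mean rates of the 9 in MDA-LM2. SNHG1 (NR_003098), known as a host conserved in its intronic RNAs rather than its exons, had 0.173, 0.208, 0.136 and 0.188 in MDA-LM2, against 0.143, 0.251, 0.155 and 0.231 in MDA-MB-231. The ranges overlapped and the 95% interval of the difference ran from -0.0945 to 0.0567 (limma adjusted p = 0.698). SNHG12 (NR_024127), host of 4 small nucleolar RNAs, had 0.362, 0.267, 0.361 and 0.253 in MDA-LM2, against 0.407, 0.143, 0.560 and 0.184 in MDA-MB-231. In both lines series 1 and 3 were above series 2 and 4, and the lines did not differ by more than this spread (difference -0.0128, 95% interval -0.241 to 0.215, limma adjusted p = 0.942). Its mean percentile was 79.0 in MDA-LM2, against 62.0 in MDA-MB-231, the highest of the 9 in both lines. EPB41L4A-AS1 (NR_015370), host of SNORA13, was the host in this range with a higher mean in MDA-LM2, at 0.106, 0.281, 0.133 and 0.226 in MDA-LM2, against -0.00697, 0.0627, 0.153 and 0.173 in MDA-MB-231. The ranges overlapped (difference 0.0911, SE 0.0554, limma adjusted p = 0.316).

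In the order of mean rates, MDA-LM2 ran SNHG6, SNHG5, ZFAS1 NR_036659, GAS5, ZFAS1 NR_003605, SNHG16 NR_038109, SNHG1, EPB41L4A-AS1 and SNHG12, slowest first. The step between GAS5 and ZFAS1 NR_003605 was the single one at which neighbours did not overlap. MDA-MB-231 ran SNHG6, ZFAS1 NR_036659, SNHG5, EPB41L4A-AS1, GAS5, SNHG16 NR_038109, SNHG1, ZFAS1 NR_003605 and SNHG12, and every neighbouring pair overlapped. SNHG6 was slowest and SNHG12 fastest in both orders.

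**Figure D3:**
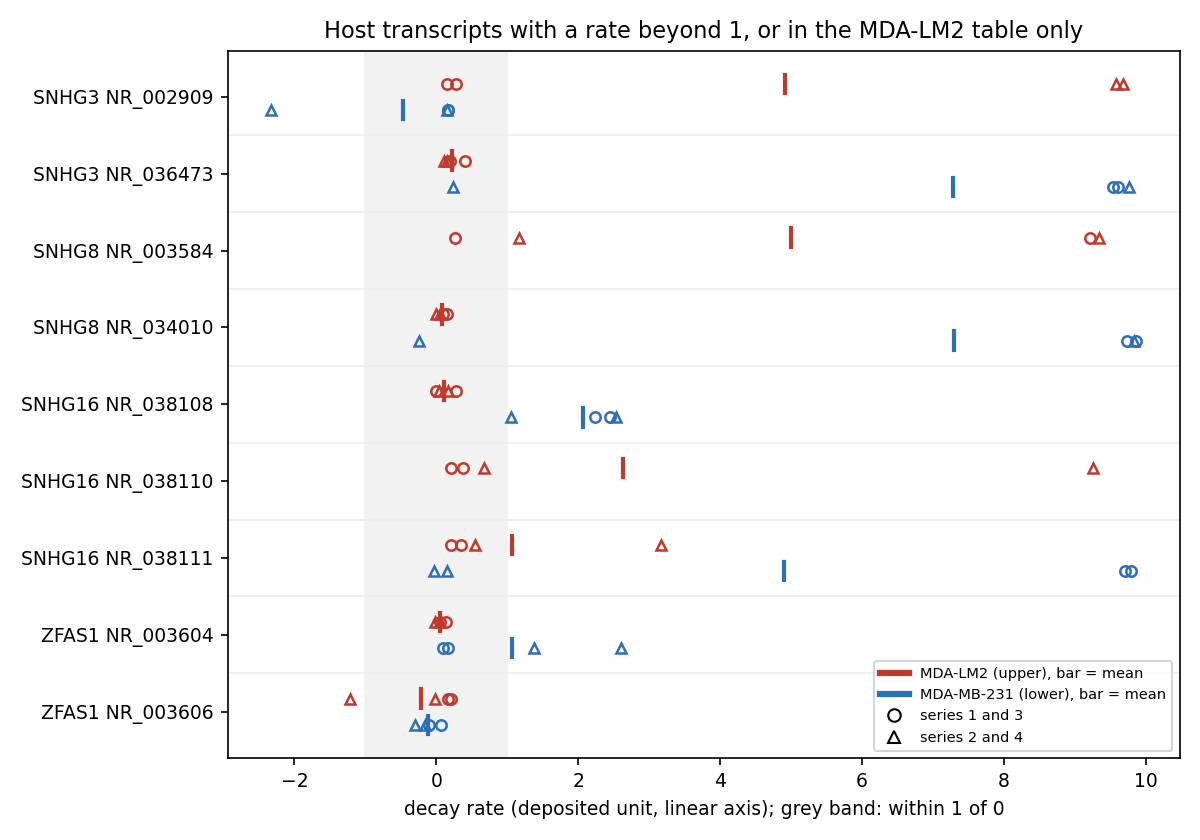
Decay rate (deposited unit) in every series of the 9 host transcripts with a rate beyond 1 either side of 0, or in the MDA-LM2 table only, with MDA-LM2 above MDA-MB-231 in each row and bars at the mean. The grey band is within 1 of 0. Rates near 9 to 10 stand in 1 to 3 series of a line, apart from its other series, and SNHG16 NR_038108 is the row in which the lines do not overlap.

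SNHG3 and SNHG8 had series near 0 and series near 9 to 10 in the same line, and their means describe neither. SNHG3, which hosts the U17 box H/ACA RNAs, had for NR_036473 0.196, 0.155, 0.406 and 0.103 in MDA-LM2, against 9.55, 9.77, 9.61 and 0.229 in MDA-MB-231. MDA-MB-231 series 4 lay within the MDA-LM2 range and the other 3 far above it (difference -7.07, SE 2.32, limma adjusted p = 0.113). Without that series, singled out after its value was seen, the difference was -9.43 and the limma adjusted p was 0.000850, while leaving out any one of the other 7 series gave 0.157 to 0.221. Its other transcript, NR_002909, had 0.279, 9.58, 0.152 and 9.68 in MDA-LM2, against 0.164, -2.33, 0.160 and 0.147 in MDA-MB-231. Here the high rates were in MDA-LM2 series 2 and 4, the sign was the opposite and the difference was not called (5.39, SE 2.62, limma adjusted p = 0.256).

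SNHG8, host of the box H/ACA RNA SNORA24, had for NR_034010 0.0952, -0.00141, 0.146 and 0.0575 in MDA-LM2, against 9.74, -0.251, 9.87 and 9.84 in MDA-MB-231. MDA-MB-231 series 2 lay below every MDA-LM2 rate and the other 3 far above (difference -7.23, SE 2.46, limma adjusted p = 0.121), and without that series the difference was -9.75 with a limma adjusted p of 0.000590. It too was singled out after its value was seen, and leaving out any one of the other 7 series gave 0.185 to 0.229. NR_003584 was in the MDA-LM2 table only, at 9.22, 9.34, 0.261 and 1.17, so a second SNHG8 isoform had the high rates in MDA-LM2. Of the stretches of 25 bases in the matched SNHG8 models, 95.1% of those in NR_034010 and 65.4% of those in NR_003584 occur in the other.

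Rates beyond 1 made up 4 of 64 values of the 16 host transcripts in MDA-LM2 (6.25%) and 15 of 64 in MDA-MB-231 (23.4%), while over all transcripts they made up 4.24% ± 0.960 in MDA-LM2, against 18.3% ± 1.24 in MDA-MB-231 (mean ± SD over 4 series). At least 1 such rate was found in 7 of the 16 host transcripts, against 34.5% of all transcripts.

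As a group the listed hosts lay below the middle of all transcripts. The median over the 16 was 0.114 ± 0.0262 in MDA-LM2, against 0.152 ± 0.0238 in MDA-MB-231 (SD over 4 series). For all 12966 transcripts it was 0.159 ± 0.0115 in MDA-LM2, against 0.182 ± 0.0156 in MDA-MB-231. The hosts' median was below that of all transcripts in each of the 8 series, although by little in MDA-MB-231 series 4 (0.1787 against 0.17925). In the 9 transcripts within 1 of 0 it was 0.0723 ± 0.0377 in MDA-LM2, against 0.135 ± 0.0338 in MDA-MB-231, and for the 8496 such transcripts it was 0.146 ± 0.0117 in MDA-LM2, against 0.153 ± 0.0154 in MDA-MB-231. Within this range MDA-MB-231 series 4 went the other way, at 0.173 for the hosts, against 0.149 for all such transcripts. Over the 8 series, the genes outside the list whose rates were nearest to the hosts' median were ANAPC1, PTPRM, STK24, IK and NUP85, with a mean absolute distance of 0.0109 to 0.0130 among 7084 genes searched.

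**Figure D4:**
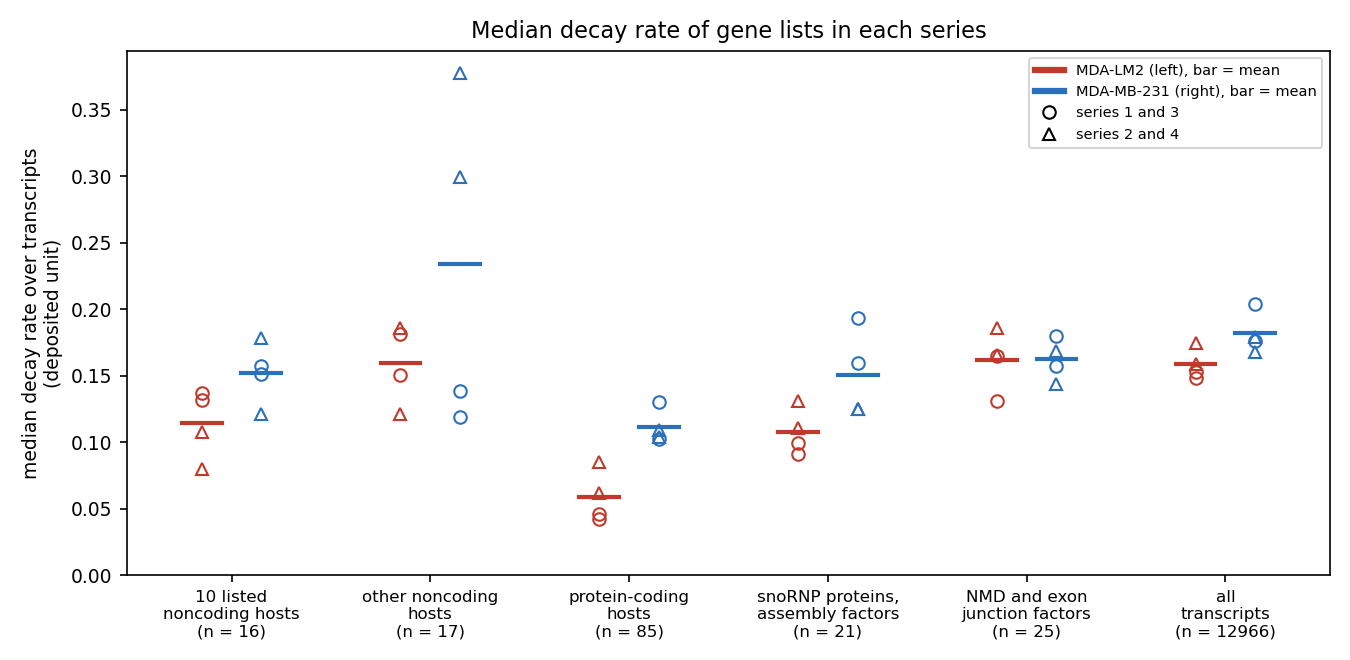
Median decay rate (deposited unit) of each transcript list in every series, with MDA-LM2 left of MDA-MB-231 and bars at the mean of 4 series. The 10 noncoding hosts lie between the protein-coding hosts, the slowest list in both lines, and all transcripts. So do the proteins that bind or assemble small nucleolar RNAs, at 0.108 in MDA-LM2, against 0.151 in MDA-MB-231. The means of the other noncoding hosts do not lie below those of all transcripts in either line. Their medians lie below in some series of each line and above in others. In MDA-LM2 they are, in series order, 0.181, 0.186, 0.151 and 0.121, against 0.148, 0.175, 0.153 and 0.159 for all transcripts. In MDA-MB-231 they are 0.119, 0.378, 0.139 and 0.299, against 0.176, 0.168, 0.204 and 0.179 for all transcripts.

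Other hosts were counted in the same fit. Of 17 further noncoding hosts listed, 8 were measured with 17 transcripts, of which 3 were slower in MDA-LM2 and 0 faster. SNHG17 (NR_027241) had 0.385, 0.262, 0.283 and 0.486 in MDA-LM2, against 2.35, 2.66, 2.56 and 2.50 in MDA-MB-231. The lines were far apart in every series (difference -2.16, SE 0.184), and limma's adjusted p was 0.000380, or 0.00231 with correlated series, the 1 call of this list that the correlated fit kept. As for SNHG16 NR_038108, every MDA-MB-231 rate of SNHG17 was beyond 1. That range held 18.3% of all MDA-MB-231 rates and 4.24% of all MDA-LM2 rates. Both SNHG29 transcripts called had rates below 0 in every MDA-LM2 series and above 0 in every MDA-MB-231 series, with means of -0.0885 ± 0.0206 in MDA-LM2, against 0.141 ± 0.0974 in MDA-MB-231 for NR_027179 and of -0.0382 ± 0.0211 in MDA-LM2, against 0.176 ± 0.0797 in MDA-MB-231 for NR_027168 (limma adjusted p = 0.0315 and 0.0212, or 0.0791 and 0.0591 with correlated series).

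Protein-coding hosts, which include many ribosomal protein genes, were measured for 59 of 60 genes and 85 transcripts, with 27 slower in MDA-LM2 and 1 faster, or 7 and 0 with correlated series. Their median was 0.0590 ± 0.0194 in MDA-LM2, against 0.112 ± 0.0129 in MDA-MB-231. Ribosomal protein genes gave 18 of these slower calls among 33 transcripts, and the other coding hosts gave 9 among 52. Slower loss of ribosomal protein transcripts in MDA-LM2 was already known from these data, so this count is not independent of it. The 3 with the largest called differences were EEF1B2, a translation elongation factor subunit (-2.11 ± 4.25 in MDA-LM2, against 9.60 ± 0.134 in MDA-MB-231, adjusted p = 0.0195 in limma, or 0.110 with correlated series, with 1 MDA-LM2 series at -8.46 and the others between -0.476 and 0.382), RCC1 NM_001048195, the nucleotide exchange factor of Ran (-0.539 ± 0.805 in MDA-LM2, against 2.46 ± 0.417 in MDA-MB-231, adjusted p = 0.00730 in limma, or 0.0483 with correlated series), and NOP56 NR_027700. Every MDA-MB-231 rate of these 3 was beyond 1. The 1 called faster was NCL, the nucleolar protein nucleolin, at 0.149 ± 0.0162 in MDA-LM2, against 0.0646 ± 0.0234 in MDA-MB-231 (adjusted p = 0.0337 in limma, or 0.139 with correlated series). It was named after its value was seen.

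Proteins that bind or assemble small nucleolar RNAs were measured for 17 of 18 genes and 21 transcripts, with 2 slower in MDA-LM2 and 0 faster, or 1 and 0 with correlated series. NOP56, a core protein of the box C/D particle and itself a host, had for its noncoding transcript NR_027700 0.211 ± 0.0506 in MDA-LM2, against 3.00 ± 0.0812 in MDA-MB-231, where every rate was beyond 1 (adjusted p = 0.000239 in limma, or 0.00118 with correlated series). FBL, fibrillarin, the methyltransferase of that particle, had 0.0130 ± 0.00965 in MDA-LM2, against 0.0920 ± 0.0271 in MDA-MB-231 (adjusted p = 0.0370 in limma, or 0.202 with correlated series). The list of factors of nonsense-mediated decay and the exon junction also held the nuclear exonuclease XRN2. This list was measured for 22 of 23 genes and 25 transcripts. It had 2 slower, XRN2 among them, and 1 faster, or 0 and 0 with correlated series in limma. EIF4A3, the helicase of the exon junction complex, had 0.170 ± 0.0297 in MDA-LM2, against 0.285 ± 0.0323 in MDA-MB-231 (adjusted p = 0.0400 in limma, or 0.168 with correlated series). XRN2 had 0.0495 ± 0.0103 in MDA-LM2, against 0.129 ± 0.0132 in MDA-MB-231 (adjusted p = 0.0162 in limma, or 0.0737 with correlated series). UPF3B, which links that complex to the decay machinery, went the other way at 0.211 ± 0.0195 in MDA-LM2, against 0.00515 ± 0.0811 in MDA-MB-231 (adjusted p = 0.0261 in limma, or 0.193 with correlated series).

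Of the 37 small nucleolar RNA genes inside the 10 hosts, 8 had rates and 4 had them in both tables. The sequences of 3 of these 4, from GENCODE 29 (GRCh38, strand of the RNA), show the processed RNAs that the hosts carry. Capitals mark ATGA near the 5′ end and CTGA near the 3′ end of a box C/D RNA, letters that boxes C and D contain, or ACA near the 3′ end of a box H/ACA RNA. The same search found its letters in 79.2% of 288 SNORD and 89.9% of 149 SNORA sequences.
SNORD28 (SNHG1), chr11:62854621-62854695, minus strand: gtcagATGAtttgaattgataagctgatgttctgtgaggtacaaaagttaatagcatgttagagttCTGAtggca
SNORA61 (SNHG12), chr1:28579764-28579893, minus strand: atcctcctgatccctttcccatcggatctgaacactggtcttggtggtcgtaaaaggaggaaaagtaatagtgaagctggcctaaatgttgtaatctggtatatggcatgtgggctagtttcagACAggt
SNORA24 (SNHG8), chr4:118279190-118279320, plus strand: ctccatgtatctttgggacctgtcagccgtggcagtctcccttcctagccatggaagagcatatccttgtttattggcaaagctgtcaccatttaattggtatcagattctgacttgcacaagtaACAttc

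SNORD28, hosted by SNHG1, had 10.74, 11.01, 10.86 and 10.98 in MDA-LM2, against 11.11, 11.04, 10.97 and -0.0452 in MDA-MB-231. SNORA61, hosted by SNHG12, had 10.0, 10.4, -10.1 and 10.4 in MDA-LM2, against 10.4, 10.4, 10.5 and 10.5 in MDA-MB-231. SNORA24, hosted by SNHG8, had 0.245, 1.29, 10.1 and 0.00658 in MDA-LM2, against 0.309, -0.285, 10.5 and -0.182 in MDA-MB-231. High rates thus stood beside rates near or below 0 for SNORD28 in MDA-MB-231, SNORA61 in MDA-LM2 and SNORA24 in both lines. SNORD28 in MDA-LM2 and SNORA61 in MDA-MB-231 were high in every series. No small nucleolar RNA of these hosts differed between lines past adjusted p 0.05 in limma (0.482 to 0.957). SNORD29, also hosted by SNHG1, had 0.508, 0.115, 11.1 and 0.0638 in MDA-LM2, against 11.4, 0.0227, 11.4 and -0.0411 in MDA-MB-231. Of 11 such RNAs of any host in both tables, 8 had a rate beyond 1. A mature small nucleolar RNA lies in an intron and its rate is not a second reading of the spliced host, whose own rates in SNHG1 and SNHG12 stayed between 0.136 and 0.560.

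Series agreed better with some series than with others. In MDA-LM2, pairs with the same second label number (1 with 3, and 2 with 4) had a mean Spearman rho of 0.778 over the 16 host transcripts, against 0.590 for pairs that share the first number and 0.485 for pairs that share neither. In MDA-MB-231 the means were 0.697, 0.346 and 0.387. Over all transcripts the means were 0.795, 0.556 and 0.555 in MDA-LM2, against 0.693, 0.270 and 0.253 in MDA-MB-231. Pairs with the same second number were highest in both lines, and in MDA-MB-231 the hosts' order of the other pairs was the reverse of that over all transcripts. What the second number stands for is not given in the labels, and transcripts are not independent replicates, so these values carry no test.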

How the data were processed

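Per the labels, labelled RNA was precipitated at each time point and sequenced from ScriptSeq V2 libraries, a kit that keeps strand. TopHat, Cufflinks and hg18 are named without version or role in the submitters' processing notes, and whether counting used strand is not given, so reads of overlapping or antisense genes (ZFAS1, EPB41L4A-AS1) may not be told apart. The authors deposited a decay rate per transcript and series and a differential score per transcript, per the file headers, and both are treated as a score with no fixed unit. The deposited score equalled, within 0.001 for all 12966 transcripts, the sign of MDA-MB-231 minus MDA-LM2 times 1 minus a Welch p, and its p was adjusted here.

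Symbols came from RefSeq (15346 identifiers) or GENCODE 29 (149), and 277 had none. The host genes and the lists were chosen with earlier results of these data known, so counts of ribosomal protein hosts are not independent evidence. Every measured transcript of the 10 hosts is named, and from each other list the 3 largest differences past adjusted p 0.05.

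Rates were compared with limma 3.58.1 (R 4.3.3), two-sided, without a block and with a variance trend, and p-values were adjusted by Benjamini-Hochberg over all transcripts in both tables. Alternatives were correlated series by the second number of the label, a replicate block, centred series, no trend, robust fitting, rates within 1 of 0, genes, the deposited score and leaving out each series. Exact permutation tests take series as exchangeable, which series of the same second number were not shown to be (correlation of 0.460 in the limma fit). Sequences were read from RefSeq GRCh38.p14 promoters and GENCODE 29. SNHG6 sequence is not used here. Python 3.11.15 was used with numpy 2.4.6, pandas 2.3.3, scipy 1.17.1 and matplotlib 3.10.9.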

Additional observations from a re-analysis of the deposited data

Results flagged for a closer look

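In 6 of 34 groups of 4 series, 1 series stood far from the other 3. The rule used flags about 1 in 20 groups (1.7 of 34) of independent values with a normal spread. Several groups here mix rates near 0 with rates near 9 to 10, and series correlate. The 1.7 is therefore no expected count for these data. SNHG3 NR_002909 was at -2.33 in MDA-MB-231 series 2, below the other 3. SNHG3 NR_036473 was at 0.229 in MDA-MB-231 series 4, below 3 rates between 9.55 and 9.77. SNHG8 NR_034010 was at -0.251 in MDA-MB-231 series 2, below 3 rates between 9.74 and 9.87. SNHG16 NR_038110 was at 9.26 and SNHG16 NR_038111 at 3.16 in MDA-LM2 series 4, above the others. ZFAS1 NR_003606 was at -1.22 in MDA-LM2 series 4, below the others. All 6 were in series 2 or 4, and all but NR_038110, which has no MDA-MB-231 rates, were among the 7 host transcripts with a rate beyond 1.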

How the results depend on the processing

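Replicate numbers did not pair series across lines (residual correlations of same-numbered series -0.00320 to 0.00731 within 1 of 0). With the number as a block limma called 310 slower and 31 faster in MDA-LM2 (2.39% and 0.239%), and 0 hosts. At an unadjusted p under 0.05 that fit had 5 hosts slower and 0 faster, against 1953 and 743 of all transcripts. With correlated series limma called 385, 37 and 0 hosts (unadjusted 3 hosts slower and 0 faster, against 1409 and 546 of all transcripts). Restricted to rates within 1 of 0 with correlated series, a setting chosen after seeing the data, it called 0 slower, 0 faster and 0 hosts, with 1508 transcripts and 2 hosts unadjusted. Centring gave 442 faster. The deposited score gave 139 faster and 1 slower host, and a fit on genes 1 slower host, GAS5. Leaving out 1 series gave 457 to 1082 slower, 91 to 352 faster, 0 to 4 slower hosts and 0 to 0 faster hosts. The hosts' median in MDA-LM2 was 0.0723 within 1 of 0 and 0.0824 without SNHG3, 0.107 to 0.126 without 1 series (MDA-MB-231 0.143 to 0.163). Centred, and so relative to all transcripts, it was -0.0445 in MDA-LM2, against -0.0298 in MDA-MB-231.

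Uncalled differences changed sign on centring for SNHG1 (0.00424), SNHG12 (0.0103) and SNHG16 NR_038109 (0.00569), by the shift between the lines. Without 1 series SNHG12 ranged from -0.0730 to 0.0659, SNHG16 NR_038109 from -0.0304 to 0.00932, ZFAS1 NR_003606 from -0.233 to 0.243 and ZFAS1 NR_036659 from -0.0548 to 0.0121. Among alternative values of single transcripts, 214 kept direction and side of the threshold, 23 lost the call, 2 gained it and 10 changed sign. Most of the 214 were of transcripts never called, and all 23 losses were of the called ones. GAS5 lost the call in 4 fits without a series and 5 other settings, and kept it in 4 and 4. SNHG16 NR_038108 lost it in 4 and 4 and kept it in 4 and 2. ZFAS1 NR_003605 lost it in 3 and 3 and kept it in 5 and 5. The cause was not tested. Depth is unknown, so precision at the level of reads was not assessed.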
